A study of Mus musculus with 6 samples.

Results

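The 35 genes described here encode enzymes and carriers of fatty acid beta-oxidation in mitochondria and peroxisomes, chosen by name from a list and read from the rows whose gene symbol equals the name. Of the 35, 34 had such a row, with 1 probe set each, among 22203 probe sets with a symbol. The 34 fell into 17 mitochondrial enzymes, 11 peroxisomal enzymes, 3 found in both organelles (Eci2, Ech1 and Crat) and 3 placed elsewhere (Acsl1, Acsl5 and Acot12). Etfb, the beta subunit of the electron transfer flavoprotein, shares its row with a microRNA gene and is not counted. That shared row read -0.29, -0.08 and -0.09 in WT and -0.30, -0.32 and -0.22 in HMGB2-KO.

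Beta-oxidation shortens fatty acids from the carboxyl end in repeated rounds of dehydrogenation, hydration, a further dehydrogenation and thiolysis. Mitochondria take long-chain acyl groups in through the carnitine shuttle and pass the electrons to the respiratory chain, while peroxisomes shorten very-long-chain, branched and bile acid precursor chains and make hydrogen peroxide in the initial step. In liver the pathway is known for its rise in fasting, and many of its genes are targets of the nuclear receptor PPARalpha, which is itself under circadian control.

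Total RNA from livers of male C57BL/6 mice aged 8 weeks was hybridised to Clariom S mouse arrays, 3 from WT and 3 from HMGB2-KO animals, with no treatment in the labels. HMGB2 binds and bends DNA in chromatin, and the series looked for genes whose expression follows it, under a title on liver regeneration and lipid droplets. The labels do not say which part of Hmgb2 was deleted, or whether the deletion is limited to a cell type. Livers are numbered 1 to 3 within each genotype without a statement that each is a separate mouse, so the spread behind each p-value is that of the samples, some of which may be technical. Values are log2 levels that the authors had centred gene by gene, so a value shows how a gene varied between arrays. It does not show how abundant one gene was beside another, nor whether the markers of hepatocytes or of other liver cells were present. The zero of a gene need not be the centre of these 6 arrays, where Acsl1 read 0.61 to 1.30. The reference of the centring is not stated.

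Hmgb2 read 0.48, 0.62 and 0.38 in WT livers 1, 2 and 3 and -0.70, -0.38 and -0.48 in HMGB2-KO livers. The change was -1.01 ± 0.15 (SE, n = 3 per genotype, limma unadjusted p 0.00019, adjusted p 0.469). All 3 HMGB2-KO livers lay below every WT liver. The array of WT liver 2 stood apart, with a median of 0.26 over all probe sets against -0.05 to 0.01 in the other arrays. The median probe set therefore changed by -0.12 between the genotypes and by -0.09 between livers numbered 3 and the others, and changes relative to these medians are called relative changes below. The values of WT liver 2 were also spread more widely (SD 0.53, against 0.32 to 0.36), which subtracting a median does not alter.

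The enzymes' median was 0.20, 0.19 and 0.08 in WT livers 1, 2 and 3 and 0.05, 0.20 and 0.03 in HMGB2-KO livers 1, 2 and 3. Less each array's median over all probe sets, it was -0.06 in WT liver 2 and 0.08 to 0.24 in the other 5 arrays, so WT liver 2 was lowest on that scale. Among lists counted below, WT liver 2 was also lowest for hepatocyte (-0.15), peroxisome biogenesis (-0.12) and tricarboxylic acid cycle genes (-0.10). For ketogenesis genes it was not, at 0.09 against 0.02 in WT liver 3. Of all 22203 probe sets, 13343 were highest in WT liver 2 and 1421 in HMGB2-KO liver 2. Of the 34 enzymes, 5 were highest in WT liver 2 and 13 in HMGB2-KO liver 2. The lowest value fell in WT liver 3 for 12 enzymes and in HMGB2-KO liver 3 for 10, and for 4806 and 4480 of all probe sets. The enzymes spanned a median of 0.55 between their lowest and highest array, against 0.61 over all probe sets. Hadha had the narrowest span, 0.08, and Acot3 the widest, 1.65.

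**Figure D1:**
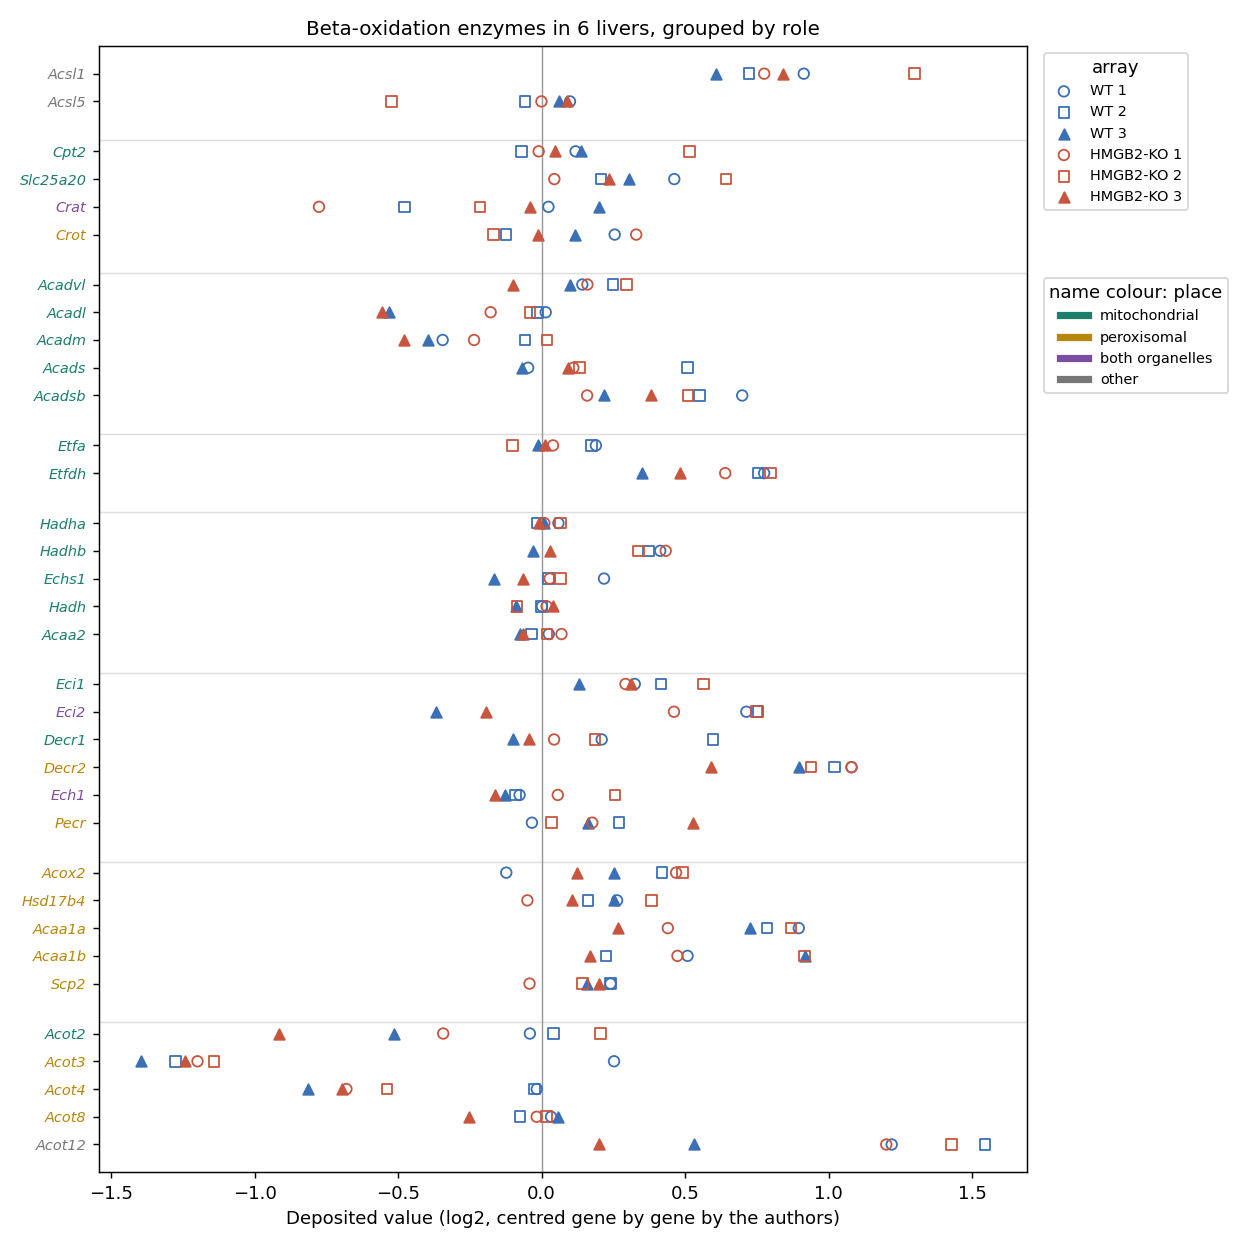
Deposited log2 value of each of the 34 measured enzymes (rows, grouped by role, names coloured by place in the cell) in the 6 arrays, with WT in blue, HMGB2-KO in red and filled triangles for livers numbered 3. Blue and red symbols overlap in every row, and the triangles lie to the left of the other symbols for Eci2, Acot12, Acadl, Hadhb and Acot2.

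Sequences around or before the transcription start are shown for 3 genes whose values are discussed below. Hadha and Hadhb, which encode the subunits of the mitochondrial trifunctional protein, are transcribed away from each other on chromosome 5 with 272 bases between their starts. The bases before the Hadhb start lie within that gap.
Hadhb, chr5:30155003-30155252, plus strand, GRCm38.p6: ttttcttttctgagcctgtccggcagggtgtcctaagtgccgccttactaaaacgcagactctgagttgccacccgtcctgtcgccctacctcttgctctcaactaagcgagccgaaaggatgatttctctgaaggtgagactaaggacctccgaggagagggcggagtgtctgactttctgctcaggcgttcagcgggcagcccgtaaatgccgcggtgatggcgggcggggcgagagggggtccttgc

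Acot12 and Acot4, a cytosolic and a peroxisomal thioesterase, carry near matches to the direct repeat bound by PPARalpha with its partner RXR, which is 2 copies of AGGTCA with 1 base of any kind between them. Capitals mark the matched bases, which lie on the strand opposite to the gene.
Acot12, chr13:91741403-91741432, plus strand, GRCm38.p6: taggacccTGACCTCTCACCTcctaagcac
Acot4, chr12:84038358-84038387, plus strand, GRCm38.p6: ccgaagcaTGACCTTTGGCCGgtctgtgcc

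RefSeq windows from 250 bases before to 50 bases after the start were at hand for 31 of the 35 genes. With 1 mismatch allowed on either strand, the repeat stood in the window of Acot12 alone among them and in 0.554% of all 32851 windows. With 2 mismatches it stood in 6 of the 31, namely Acot12, Acot4, Echs1, Etfa, Slc25a20 and Acox2, and in 3.86% of all windows. The E-box CACGTG, a site of the clock proteins CLOCK and BMAL1, occurred in the Acot4 window and in 7.15% of all windows. Neither TCAAGGTCA, a site of estrogen-related receptors, nor TTANGTAA, a site of the clock output factors DBP, TEF and HLF, was found among the 31 (0.423% and 2.32% of all windows). A match describes letters in the window and is not evidence of binding.

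The genotype comparison asks whether beta-oxidation genes follow Hmgb2. No enzyme passed the test between HMGB2-KO and WT livers. The largest changes were -0.39 for the thioesterase Acot3 and 0.23 for the acyl-CoA synthetase Acsl1, and the largest fold was 1.31. Of the 34, 0 reached an unadjusted p under 0.05 in limma, where 4.92% of all probe sets did (0.0721% higher and 4.85% lower), and 0 passed the adjusted threshold, as did 0% of all probe sets. Centring each array moved the split of all probe sets at the unadjusted level from 16 higher and 1076 lower to 229 and 621. In 0 of the 34 did the genotypes not overlap, against 11.7% of all probe sets. The 95% interval of the change held 0 for all 34 enzymes. It lay within a 1.5-fold change in either direction for 22 and within a 2-fold change for 32, the exceptions being Acot3 and Acot12. Without WT liver 3, 1 enzyme (Acot4) reached an unadjusted p under 0.05, as did 23 higher and 2101 lower of all probe sets. Without HMGB2-KO liver 2, 1 enzyme (Acaa1a) did, beside 22 higher and 698 lower of all probe sets.

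The enzymes' median change was -0.03, or 0.09 relative to all probe sets. Relative changes were positive for 23 enzymes and negative for 11, while 22 of the 34 changes as deposited were negative. Positive relative changes were not particular to the enzymes. Among lists counted below, they were found for 11 of 11 hepatocyte genes, 17 of 21 peroxisome biogenesis genes and 12 of 18 tricarboxylic acid cycle genes. The counts were 24 of 45 probe sets of further beta-oxidation genes and 3 of 8 adipocyte genes. The 17 mitochondrial enzymes had a median relative change of 0.11 and the 11 peroxisomal ones 0.03. Leaving out WT liver 2, these became 0.05 and -0.09, and without HMGB2-KO liver 2 the median of all 34 was 0.01. The difference between the classes was not tested.

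Several enzymes that activate fatty acids and carry them into mitochondria had their most extreme value in HMGB2-KO liver 2. Acsl1, the main long-chain acyl-CoA synthetase of liver, read 0.91, 0.72 and 0.61 in WT livers 1, 2 and 3 and 0.78, 1.30 and 0.84 in HMGB2-KO livers. The ranges overlap, with the highest value in HMGB2-KO liver 2, and the change was 0.23 ± 0.18 (SE, n = 3 per genotype), or 0.06 without that liver. Acsl5, a synthetase of mitochondrial outer and endoplasmic reticulum membranes, read 0.10, -0.06 and 0.06 against 0.00, -0.52 and 0.09. HMGB2-KO liver 2 was low and the other 5 lay close together, so that the change of -0.18 ± 0.19 (SE) became 0.01 without it.

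Cpt2, which returns the acyl group from carnitine to coenzyme A inside the mitochondrion, and Slc25a20, the carrier that exchanges acylcarnitine for carnitine across the inner membrane, changed by 0.12 ± 0.18 and -0.02 ± 0.19 (SE). Both were highest in HMGB2-KO liver 2, at 0.52 and 0.64. The short-chain carnitine acetyltransferase Crat read 0.02, -0.48 and 0.20 in WT and -0.78, -0.21 and -0.04 in HMGB2-KO, which overlap. Its change was -0.26 ± 0.25 (SE), or -0.04 without HMGB2-KO liver 1. Crot, which hands medium-chain products of peroxisomes to carnitine, averaged 0.08 ± 0.19 in WT against 0.05 ± 0.25 in HMGB2-KO (SD, 3 livers each).

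The acyl-CoA dehydrogenases, which start each mitochondrial round on chains of different length, changed by -0.14 to 0.03. Acadsb, which acts on short branched chains, had the lowest of these and read 0.70, 0.55 and 0.22 in WT and 0.16, 0.51 and 0.38 in HMGB2-KO. WT liver 1 was highest, HMGB2-KO liver 1 lowest, and the change went from -0.14 ± 0.18 (SE) to -0.04 without HMGB2-KO liver 1. The very-long-chain enzyme Acadvl changed by -0.05 ± 0.15, the long-chain enzyme Acadl by -0.08 ± 0.21, the medium-chain enzyme Acadm by 0.03 ± 0.18 and the short-chain enzyme Acads by -0.02 ± 0.18 (SE). The electrons of all 5 pass to the electron transfer flavoprotein and on to ubiquinone through Etfdh. Etfa, its alpha subunit, read 0.19, 0.17 and -0.01 in WT and 0.04, -0.10 and 0.01 in HMGB2-KO, with overlapping ranges and a change of -0.13 ± 0.14 (SE), which is -0.01 relative to all probe sets.

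Hadha and Hadhb carry out hydration, dehydrogenation and thiolysis of long chains, and Echs1, Hadh and Acaa2 do so for shorter chains. These 5 changed by -0.01 to 0.04, with standard errors of 0.13 to 0.18, and their median was 0.14 relative to all probe sets. Among the auxiliary enzymes, which rearrange or reduce double bonds so that unsaturated chains can be degraded, Decr1, the mitochondrial dienoyl-CoA reductase, read 0.21, 0.60 and -0.10 in WT and 0.04, 0.19 and -0.04 in HMGB2-KO. WT liver 2 was high, and without it the change went from -0.17 ± 0.20 (SE) to 0.01. Ech1, a dienoyl-CoA isomerase, read -0.08, -0.09 and -0.13 in WT and 0.06, 0.26 and -0.16 in HMGB2-KO. Its lowest value was HMGB2-KO liver 3, and the change was 0.15 ± 0.15 (SE), or 0.04 without HMGB2-KO liver 2. The remaining auxiliary enzymes ran from -0.13 for Decr2, the peroxisomal dienoyl-CoA reductase, to 0.11 for Pecr, a peroxisomal enoyl-CoA reductase that takes part in chain elongation.

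Among the peroxisomal core enzymes, Acaa1a, a 3-ketoacyl-CoA thiolase, had the smallest p. It read 0.90, 0.79 and 0.73 in WT livers 1, 2 and 3 and 0.44, 0.87 and 0.27 in HMGB2-KO livers. HMGB2-KO livers 1 and 3 lay below all WT livers and HMGB2-KO liver 2 within their range, with a change of -0.28 ± 0.18 (SE, limma adjusted p 0.852). It was -0.45 without HMGB2-KO liver 2, -0.15 without HMGB2-KO liver 3 and -0.16 on centred arrays. Its close paralog Acaa1b, whose probes may share signal with it, read 0.51, 0.22 and 0.92 against 0.47, 0.92 and 0.17.

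Acox2, the oxidase that starts the shortening of bile acid precursors and branched chains, pointed the other way with -0.12, 0.42 and 0.25 in WT and 0.47, 0.49 and 0.12 in HMGB2-KO. WT liver 1 was lowest, and without it the change of 0.18 ± 0.19 (SE) fell to 0.03. Scp2, a thiolase and lipid transfer protein, read 0.24, 0.24 and 0.16 against -0.04, 0.14 and 0.20. HMGB2-KO liver 1 was low, and the change of -0.11 ± 0.14 (SE) was 0.01 relative to all probe sets. Hsd17b4, the multifunctional protein that follows the oxidases, changed by -0.08 ± 0.16 (SE).

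All 5 thioesterases, which release free fatty acids from coenzyme A, had negative changes, from -0.39 to -0.09, and 0 of them passed the test. Of all 22203 probe sets, 17189 were negative as deposited, and relative to their median 4 of the 5 thioesterases were negative and Acot8 stood at 0.03. Acot4, a peroxisomal enzyme of dicarboxylic chains, read -0.02, -0.03 and -0.81 in WT and -0.68, -0.54 and -0.69 in HMGB2-KO. WT livers 1 and 2 lay above all HMGB2-KO livers, but WT liver 3 lay below them, and the change was -0.35 ± 0.23 (SE, limma adjusted p 0.852). It was -0.62 without WT liver 3 (adjusted p 0.51), -0.22 without WT liver 1 or without WT liver 2, -0.23 on centred arrays and -0.19 after quantile normalization. The neighbouring gene Acot3, a peroxisomal long-chain thioesterase in mouse, read 0.25, -1.27 and -1.40 against -1.20, -1.14 and -1.24. A high value in WT liver 1 made its change of -0.39 ± 0.40 (SE), which without that liver turned to 0.14. Acot2, Acot4 and Acot3 stand in a cluster of close paralogs on chromosome 12 and may share probe signal.

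**Figure D2:**
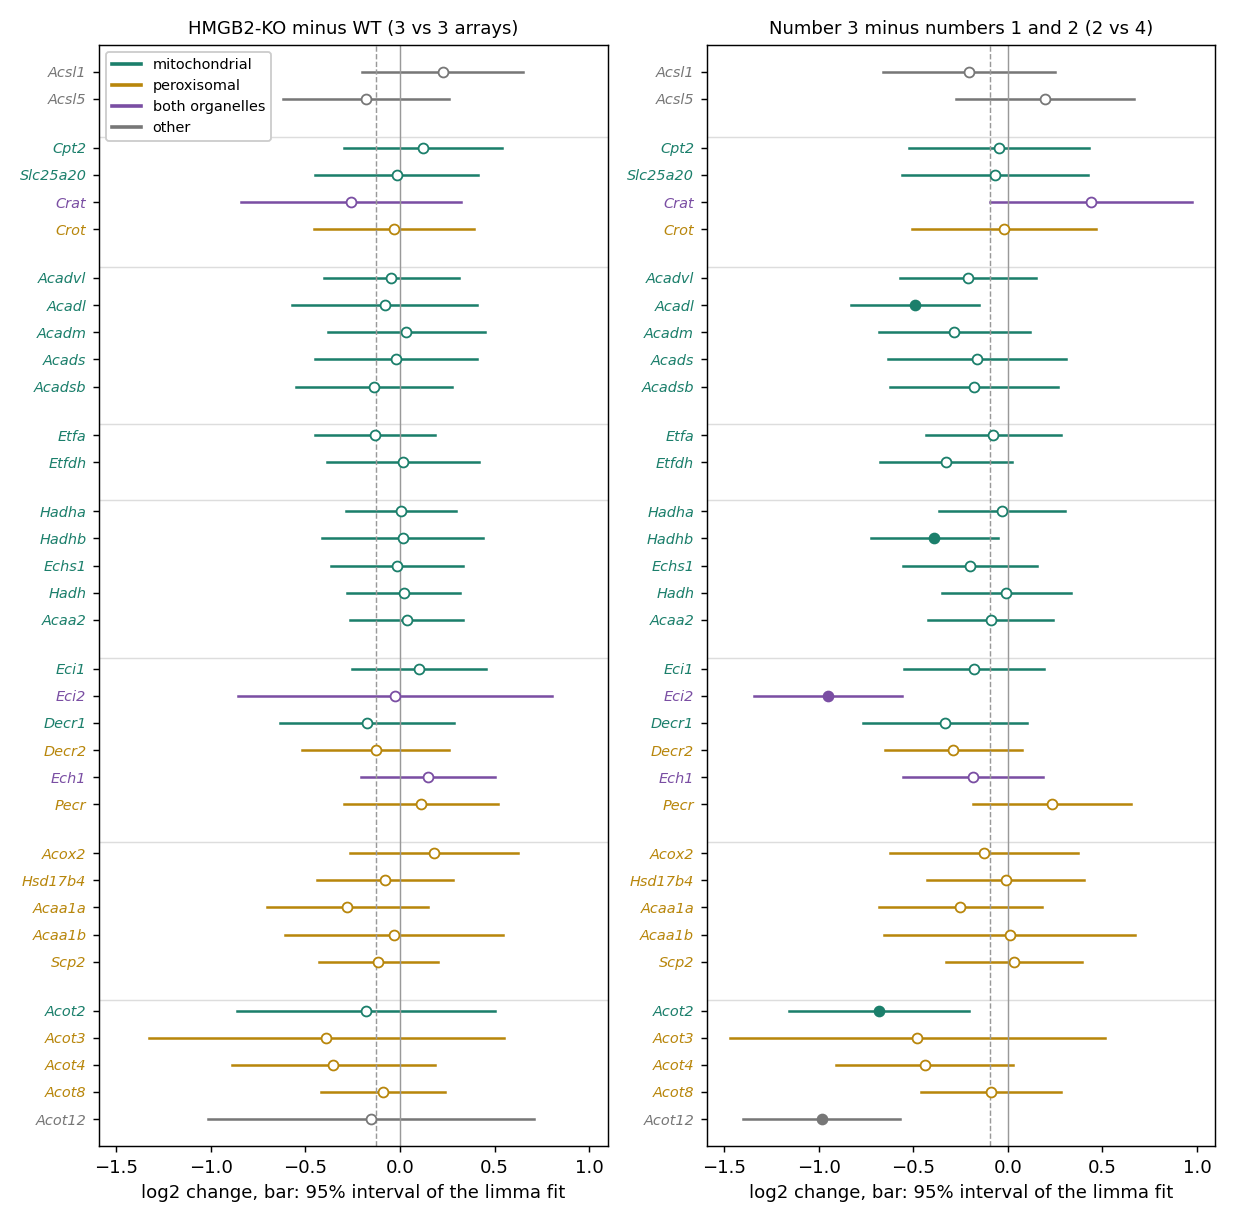
Change of each enzyme with the 95% interval of the limma fit, for HMGB2-KO minus WT (left) and for livers numbered 3 minus livers numbered 1 and 2 (right), with filled points for an unadjusted p under 0.05 and a dashed line at the median of all probe sets. All 34 intervals on the left hold 0, and the 5 filled points on the right are Acadl, Hadhb, Eci2, Acot2 and Acot12.

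By liver number, the largest fold among the enzymes was 1.98, and the enzymes with the smallest p were lower in livers numbered 3. The livers numbered 3, 1 of each genotype, were compared with the 4 livers numbered 1 and 2, with genotype as a term. The labels do not say what the number stands for, and this contrast was chosen with earlier results of these data known. Of the 34 enzymes, 5 reached an unadjusted p under 0.05 in limma and all 5 were lower in livers numbered 3, where 5.6% of all probe sets were lower at that level and 1.55% higher. None of the 34 passed the adjusted threshold, which 0.0315% of all probe sets did. The 5 were Eci2, Acot12, Acadl, Acot2 and Hadhb. Without WT liver 3, Eci2 and Acot12 stood at -0.80 and -1.115, and without HMGB2-KO liver 3 at -1.10 and -0.85. Each of these fits holds only 1 liver numbered 3, so only the sizes of change are given. With arrays centred on their medians, Hadhb missed the threshold and Pecr reached it as higher, while the split over all probe sets went from 345 higher and 1243 lower to 822 and 1024.

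Acot12, the cytosolic acetyl-CoA thioesterase shown above with its repeat match, had the largest change. It read 1.22 and 1.54 in WT livers 1 and 2 and 1.20 and 1.43 in HMGB2-KO livers 1 and 2, against 0.53 and 0.20 in WT and HMGB2-KO livers 3. Both livers numbered 3 lay well below the other 4, and the change was -0.98 ± 0.17 (SE, 2 against 4 arrays), a 1.98-fold lower level, with an unadjusted p of 0.000874 and a limma adjusted p of 0.262. The gap was -0.85 within WT and -1.12 within HMGB2-KO.

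Eci2, an isomerase of both organelles that shifts the double bond of unsaturated chains, read 0.71 and 0.75 in WT livers 1 and 2, 0.46 and 0.75 in HMGB2-KO livers 1 and 2, and -0.37 and -0.19 in WT and HMGB2-KO livers 3. The 2 groups did not overlap. Its change was -0.95 ± 0.16 (SE), a 1.93-fold lower level (unadjusted p 0.000782, limma adjusted p 0.252), with -1.10 within WT and -0.80 within HMGB2-KO. Its mitochondrial relative Eci1 stood at -0.18 ± 0.16 (SE).

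Acot2, the mitochondrial long-chain thioesterase, read -0.04, 0.04, -0.34 and 0.21 in livers 1 and 2 of WT and HMGB2-KO and -0.51 and -0.92 in livers 3. Every liver numbered 3 lay below the rest, with a change of -0.68 ± 0.20 (SE, limma adjusted p 0.563). In Acot4, WT liver 3 and HMGB2-KO liver 3 were lowest at -0.81 and -0.69, but HMGB2-KO liver 1 stood at -0.68. The change of -0.44 ± 0.20 (SE, limma adjusted p 0.72) was -0.79 within WT and -0.08 within HMGB2-KO, and -0.08 without WT liver 3. Of the 5 thioesterases, 2 passed the unadjusted threshold and 3 did not.

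Acadl, the long-chain dehydrogenase, read 0.01, -0.01, -0.18 and -0.04 in livers 1 and 2 of WT and HMGB2-KO and -0.53 and -0.56 in livers 3. Without overlap, it changed by -0.49 ± 0.14 (SE, limma adjusted p 0.563). Its 4 relatives also had negative changes, from -0.28 for Acadm to -0.16 for Acads, and did not pass. Etfdh read 0.78, 0.75, 0.64 and 0.80 against 0.35 and 0.48 and likewise did not overlap, at -0.33 ± 0.15 (SE, limma adjusted p 0.72), with a 95% interval from -0.68 to 0.02.

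Hadhb and Hadha are set side by side because they share the region between their starts. Hadhb read 0.41, 0.37, 0.43 and 0.34 in livers 1 and 2 of WT and HMGB2-KO and -0.03 and 0.03 in livers 3, a change of -0.39 ± 0.14 (SE, limma adjusted p 0.672). The 4 livers numbered 1 and 2 lay close together and above both livers numbered 3. Hadha read 0.06, -0.02, 0.01 and 0.07 against 0.01 and -0.01, a change of -0.03 ± 0.14 (SE) with a 95% interval from -0.36 to 0.30. The intervals of the 2 genes overlap, and the difference between them was not tested. Hadha, Hadh and Acaa2 had the 3 narrowest spans among the enzymes, at most 0.15 between any 2 arrays, and how bright their probes were cannot be read from centred values.

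Crat was the member with the largest rise in value by number, at 0.20 and -0.04 in WT and HMGB2-KO livers 3 against 0.02, -0.48, -0.78 and -0.21 in the others. WT liver 1 lay between the 2 livers numbered 3, and the change of 0.44 ± 0.22 (SE, limma adjusted p 0.734) did not pass. Pecr stood at 0.23 ± 0.17 and Acsl5 at 0.20 ± 0.20 (SE), also short of the threshold as deposited. Pecr reached an unadjusted p of 0.044 once arrays were centred on their medians.

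Counted by overlap, 14 of the 34 enzymes (41.2%) lay lower in both livers numbered 3 than in every other liver and 0 lay higher, where 14% and 4.46% of all probe sets did. The 14 were the 5 above with Acot4, Etfdh, Acadvl, Acadm, Echs1, Acaa2, Decr1, Decr2 and Ech1. After median centring of each array the count was 7 (20.6%, against 9.29% of all probe sets), namely Eci2, Acot12, Acadl, Acot2, Hadhb, Acot4 and Decr1. Within each genotype taken alone, 21 of the 34 had a negative difference in both WT and HMGB2-KO and 3 a positive one in both, where 40.5% of all probe sets were negative in both. The arrays of the 2 genotypes are separate, but WT livers 1 and 2 include the array that stood apart.

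**Figure D3:**
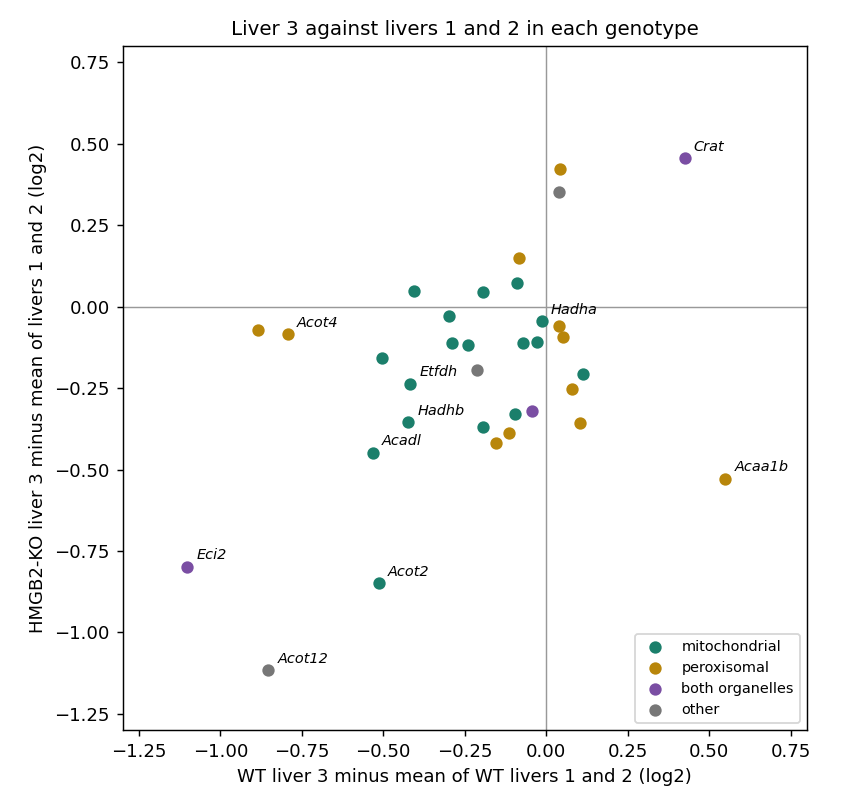
Difference of liver 3 from the mean of livers 1 and 2 for each of the 34 enzymes, within WT (horizontal, log2) and within HMGB2-KO (vertical, log2), coloured by place in the cell. Eci2 (-1.10 and -0.80), Acot12 (-0.85 and -1.12) and Acot2 (-0.51 and -0.85) lie farthest to the lower left, Crat (0.43 and 0.46) to the upper right, and Acaa1b (0.55 and -0.53) at opposite signs.

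Mitochondrial and peroxisomal enzymes were then set side by side. All 17 mitochondrial enzymes had a negative change by liver number as deposited, 9 of them without overlap, and 3 passed the unadjusted threshold, where 15007 of all 22203 probe sets were negative and 14% lower without overlap. Relative to all probe sets, 11 of the 17 were negative. Of the 11 peroxisomal enzymes, 8 were negative, 2 of them without overlap (Acot4 and Decr2), and 0 passed. The counts without overlap were 4 mitochondrial and 1 peroxisomal on centred arrays and 3 and 2 after quantile normalization. Of all probe sets, 9.29% and 8.99% were lower without overlap in these 2 settings. The median change was -0.18 for the mitochondrial and -0.09 for the peroxisomal enzymes, or -0.08 and 0.01 relative to all probe sets. Without HMGB2-KO liver 3, these relative medians were -0.05 and 0.23, and that of all 34 enzymes turned from -0.08 to 0.06. Without WT liver 2 they were -0.15 and -0.09.

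By array, the mitochondrial median was 0.14, 0.17 and -0.03 in WT livers 1, 2 and 3 and 0.04, 0.19 and 0.01 in HMGB2-KO livers. It was lowest in the 2 livers numbered 3 and, among HMGB2-KO, not far above them in liver 1. The peroxisomal median was 0.25, 0.22 and 0.16 in WT and 0.18, 0.14 and 0.12 in HMGB2-KO, again lowest in liver 3 of each genotype as deposited. Less the array medians, WT liver 2 was the lowest WT liver for both classes, at -0.08 for the mitochondrial and -0.03 for the peroxisomal enzymes. Hepatocyte genes were lowest there as well, at -0.15. The mitochondrial median minus the peroxisomal one was -0.11, -0.05 and -0.19 in WT and -0.13, 0.05 and -0.11 in HMGB2-KO, and its range in HMGB2-KO held 2 of the 3 WT values. No test was run on these medians, since the lists were chosen with results known.

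Peroxisomal core enzymes were uneven by liver number. Hsd17b4 and Scp2 stood at -0.01 ± 0.17 and 0.03 ± 0.15 (SE), with 95% intervals from -0.43 to 0.40 and from -0.33 to 0.39. Acaa1b read higher in WT liver 3 than in the other WT livers and lower in HMGB2-KO liver 3 than in the other HMGB2-KO livers (0.55 and -0.53). Acaa1a stood at -0.25 ± 0.18 and Acox2 at -0.13 ± 0.21 (SE). Acot3 stood at -0.48 ± 0.42 (SE), the mean of -0.88 within WT, where liver 1 was high, and -0.07 within HMGB2-KO.

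**Figure D4:**
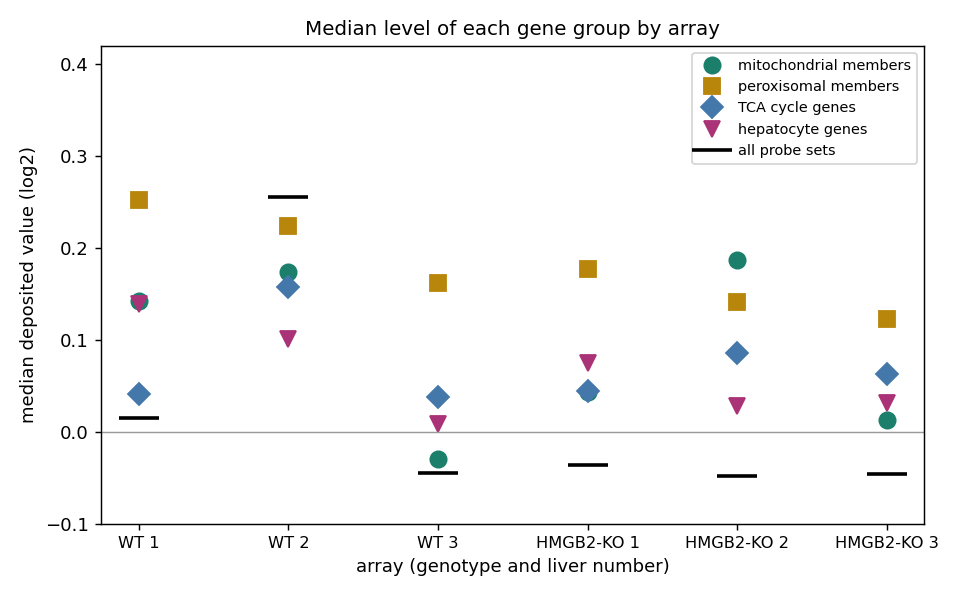
Median deposited log2 value in each array for the mitochondrial and peroxisomal enzymes, for genes of the tricarboxylic acid (TCA) cycle and of hepatocytes, and for all probe sets (black bars). The mitochondrial median was -0.03 and 0.01 in livers numbered 3, and the bar of WT liver 2 stands at 0.26 against -0.05 to 0.01 in the other arrays. Heights of different groups cannot be compared, because each gene was centred on its own zero.

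Other genes of the pathway gave the following counts at an unadjusted p under 0.05. Of 45 probe sets for 41 further beta-oxidation genes, 2 were lower and 0 higher in HMGB2-KO, a share close to the 4.85% of all probe sets that were lower. They were Hacl1, a peroxisomal lyase of branched chains, at -0.63 ± 0.22 and Abcd3, a peroxisomal membrane transporter of acyl chains, at -0.39 ± 0.16 (SE, limma adjusted p 0.852 for both). By liver number 5 were lower and 2 higher, where 5.6% of all probe sets were lower and 1.55% higher. Cpt1a, the rate-limiting enzyme of the carnitine shuttle and upstream of Cpt2 and Slc25a20, read 0.52, 0.85, 0.56 and 0.86 in livers 1 and 2 of WT and HMGB2-KO and -0.54 and -0.86 in livers 3. That is a change of -1.40 ± 0.19 (SE, limma adjusted p 0.128), while Cpt2 and Slc25a20 stood at -0.05 ± 0.20 and -0.07 ± 0.21. Acsm3, a medium-chain acyl-CoA synthetase, stood at -0.50 ± 0.17 (SE).

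Among 21 genes of peroxisome biogenesis and peroxisomal membranes, 1 was lower in HMGB2-KO (Abcd3 again), also close to that 4.85%. By liver number 5.6% of all probe sets were lower and 1.55% higher. There 2 biogenesis genes were lower, the import factor gene Pex14 at -0.40 ± 0.15 and Pex5l at -0.49 ± 0.18 (SE). Of 6 ketogenesis genes, 0 passed in either comparison. Bdh1, which interconverts the ketone bodies acetoacetate and beta-hydroxybutyrate, stood at -0.46 ± 0.21 (SE) by liver number. Of 18 TCA cycle genes, 0 passed by genotype, and citrate synthase, Cs, was higher in livers numbered 3 at 0.44 ± 0.16 (SE). The TCA list had a relative median change of 0.01 by number, against -0.08 for the mitochondrial beta-oxidation enzymes. It was -0.10 for the ketogenesis genes, -0.28 for the regulators of oxidation counted next, -0.002 for the further beta-oxidation genes and 0.13 for peroxisome biogenesis. Differences between these lists were not tested. Of 12 regulators of oxidation, 0 passed by genotype and 6 were lower by number, where 5.6% of all probe sets were. Ppara, the gene of PPARalpha, read 1.33, 1.76, 1.42 and 1.52 in livers 1 and 2 of WT and HMGB2-KO and 0.43 and 0.14 in livers 3, a change of -1.22 ± 0.18 (SE, limma adjusted p 0.147). Its coactivator gene Lpin1 changed by -4.38 ± 0.62 (SE, limma adjusted p 0.14).

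Clock genes were read from the same fits. Of 16, 12 passed the unadjusted threshold by liver number (5 higher and 7 lower in livers numbered 3) and 0 did by genotype. Of all probe sets, 1.55% were higher and 5.6% lower by liver number. Nr1d1, the gene of the clock repressor REV-ERBalpha, read 3.28, 3.29, 2.84 and 2.86 in livers 1 and 2 of WT and HMGB2-KO and -1.61 and -1.56 in livers 3 (change -4.65 ± 0.17, SE, limma adjusted p 0.000672). Its paralog Nr1d2 changed by -2.50 ± 0.24 (SE, limma adjusted p 0.062). The part of the clock genes in the differences of Eci2, Acot12, Acadl, Acot2 and Hadhb was not tested.

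Cell type markers were counted in the same fits, and in whole tissue fewer cells of a type and less RNA per cell cannot be told apart. Of 11 measured hepatocyte genes, 0 passed in either comparison, with Apoa2 at -7.00 in WT liver 2 and 0.02 to 0.21 in the other livers. Their median ran from 0.01 to 0.14 in WT and from 0.03 to 0.07 in HMGB2-KO. By genotype, 1 of 10 endothelial genes (Pecam1, higher), 1 of 10 stellate and fibroblast genes (Lum, lower) and 1 of 8 cholangiocyte genes (Spp1, higher) passed. By liver number 1 endothelial gene (Lyve1) was lower, the fibroblast gene Lum was higher and the stellate gene Des lower, and 1 of 8 adipocyte genes (Plin1) was lower. Of all probe sets, 4.85% were lower and 0.0721% higher by genotype, and 5.6% lower and 1.55% higher by liver number. Macrophage, lymphocyte and red blood cell genes gave 0 in both comparisons, with 10, 9 and 3 measured. Their part in the values above was not tested.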

How the data were processed

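The authors deposited 1 table of log2 values for 6 arrays, centred gene by gene. The log base and the centring are read from the values, since neither background correction nor summarisation nor build is given in the sources used here. A second deposited table repeats all 22206 rows. The 22203 rows with a symbol were fitted as deposited with limma 3.58.1 (lmFit, eBayes, two-sided) in R 4.3.3, with Benjamini-Hochberg adjustment at 0.05. HMGB2-KO minus WT had genotype as its term, and number 3 minus numbers 1 and 2 had genotype beside it. Intervals are 95% intervals of that fit. The enzymes, the other gene lists and the liver number contrast were chosen with earlier results of these data known, and no list was tested as a set.

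Values in every array are given for the 12 enzymes with the smallest p by genotype and the 8 by liver number, and up to 2 genes with the smallest p are named per other list. Hadha, Acaa1b, Pecr and others outside that rule were chosen after their values were seen. The fit was tested on simulated data before use, with 50 changed genes of each size. By genotype, 0 at 1.5-fold and 18 at 2-fold passed the adjusted threshold, and 33 and 48 the unadjusted one. By liver number, 1 and 6 passed the adjusted threshold, and 30 and 48 the unadjusted one. A change below 1.5-fold is therefore unlikely to pass the adjusted threshold with these 6 arrays. Alternatives were centring or quantile normalization of arrays, robust eBayes, array weights, averaging probe sets of a symbol, a block for the liver number, and omission of 1 array at a time. Promoter windows are RefSeq's on GRCm38.p6. Precision is limited by having 3 arrays a genotype.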

Additional observations from a re-analysis of the deposited data

How the results depend on the processing

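By genotype, the enzymes called at the adjusted threshold numbered 0 under all 16 alternatives, and by liver number 0 under all 13. With array weights, 6 probe sets were called by genotype, and the relative medians were -0.0216 for all enzymes and 0.0055 for the mitochondrial ones. In that fit 3 enzymes reached an unadjusted p under 0.05 (Acot3, Acot4 and Acox2) in place of 0. Of all probe sets, 458 were then higher and 2499 lower at that level, in place of 16 and 1076. Leaving out each array in turn, the enzymes at that unadjusted level numbered 0 to 1, beside 19 to 213 higher and 550 to 2101 lower of all probe sets. The relative median then ran from 0.01 to 0.15 for all, 0.05 to 0.19 for mitochondrial and -0.0901 to 0.13 for peroxisomal enzymes. On centred arrays without WT liver 2 the peroxisomal median was -0.0901 and Decr1 stood at 0.0354. Centring, quantile normalization and the block on centred arrays turned Scp2 to 0.0050. Leaving out 1 array, Acot3 ran from -0.68 to 0.14, Decr1 from -0.34 to 0.0070 and Acsl5 from -0.30 to 0.0110. With livers numbered 3 left out, chosen after seeing the data, 1 enzyme (Acot4) reached the unadjusted threshold. Of all probe sets, 16 were higher and 1297 lower at that threshold. The peroxisomal median was then 0.15. Same-numbered livers of the 2 genotypes correlated at 0.016, 0.134 and 0.275 in their deviations from the genotype means. Each WT liver correlated best with the HMGB2-KO liver of its number, while HMGB2-KO liver 1 correlated better with WT liver 2 (0.105). The labels state no pairing, and the main genotype fit did not use the number. With the number as a block, 0 probe sets and 0 enzymes were called. By liver number, 7 probe sets were called as deposited, 21 with quantile normalization, 11 with robust eBayes, 18 with array weights, 20 with numbers 1 and 2 as separate levels (added after seeing the data) and 1 to 10 without 1 array. Leaving out 1 of the livers numbered 1 or 2, enzymes at the unadjusted threshold numbered 4 to 5. Of all probe sets, 236 to 547 were then higher and 960 to 1745 lower at that level. Without any 1 of the 6 arrays, the relative medians ran from -0.14 to 0.0552 for all and from -0.10 to 0.23 for peroxisomal enzymes. The overlap count was 7 on centred or quantile normalized arrays, where 9.29% and 8.99% of all probe sets were lower without overlap. The cause of these shifts was not tested. Signal over background cannot be read from centred values, so its effect on these results is not known.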

Other observations

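Genes outside all lists whose values followed the mitochondrial median most closely over the 6 arrays were Hnrnpdl, Mtss1, Lrrc4c, Rusc2 and Gfra1 (Pearson r 0.990 to 0.994). For the peroxisomal median they were 4930524J08Rik, Adora2b, F11r, Sez6 and Psrc1 (r 0.981 to 0.989). With 6 arrays and 22203 probe sets to choose from, these are descriptions.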
